A study of Homo sapiens with 28 samples.

Results

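The genes described here are 10 named targets of the FOXO transcription factors, SESN1, SESN2, SESN3, CCNG2, TXNIP, PIK3IP1, KLF9, BCL6, FBXO32 and INSR, taken by name from a count table of 58735 genes. All 10 were in the table and all 10 passed the filter on low counts, which left 17191 genes for testing. Sequencing of poly(A) RNA from MDA-MB-231, a human cell line from a triple-negative breast tumour, gave 28 libraries in 14 groups of 2. One line carried an empty vector (EV) and the other overexpressed tropomyosin 2.1 (Tpm2.1), a product of the gene TPM2 that lies along actin filaments. Both lines were kept in serum-containing medium with puromycin, so every group shared that selection. Attached cells of each line were taken after 6 hours on culture plates, and suspended cells after 5 hours or after 1, 2 or 4 days on ultra-low attachment plates. Only the suspended Tpm2.1 cells were described as split on Annexin V beads, which yielded apoptotic and non-apoptotic fractions of every suspension time. EV cells and attached cells had no stated split, so line and bead handling changed together wherever suspended lines were compared. Suspension and bead handling changed together where the non-apoptotic fraction was compared with attached Tpm2.1 cells. The same limit holds for the difference of the suspension response between the lines. The labels describe 1 line with each vector, so an effect of the transgene and any other difference of that line are confounded and cannot be told apart.

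FOXO proteins are forkhead transcription factors that stand at the end of insulin and growth factor signalling. When the kinases PI3K and AKT are active, AKT and the related kinase SGK phosphorylate FOXO proteins, which then leave the nucleus. When that signal falls, FOXO proteins return to the nucleus and switch on genes for cell cycle arrest, stress defence, protein breakdown and feedback on the insulin pathway. Attachment to matrix feeds into PI3K in epithelial cells. Several of these targets also answer to other regulators, such as p53 for SESN1, ATF4 for SESN2 and the sugar sensor MondoA for TXNIP.

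The targeted gene was checked first. TPM2 lay between 22.7 and 46.1 CPM (counts scaled to library size by TMM) in the EV libraries and between 2460 and 7860 CPM in the Tpm2.1 libraries, without overlap. Library totals ran from 13043529 to 27416335 counts. The label calls the line epithelial. Its keratins KRT8 and KRT18 were present at 41.3 CPM or more, but the epithelial cadherin CDH1 reached at most 0.634 CPM, while the mesenchymal genes VIM and CD44 were at 228 CPM or more in every library. The 2 libraries of the apoptotic fraction at 4 days stood apart, with 18430 ± 349 genes detected (SD, n = 2). The means of the other groups ran from 21520 to 24190. The mean difference between the fractions is therefore given with and without these 2 libraries. By title, paired libraries are biological replicates, but how separately they were grown is not given in the sources used here, so p-values measure the spread between these libraries. In RNA from a bulk population, fewer cells that express a gene and less of its RNA per cell cannot be told apart. Exons of SESN1, SESN3, BCL6 and PIK3IP1 overlap exons of antisense genes, by 363, 93, 318 and 36 bases at the most. Whether counting used strand is not given in the sources used here, so their reads cannot be told apart from antisense reads in those bases.

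The level of each gene in every library shows the main pattern. Within either line CCNG2, KLF9, PIK3IP1, FBXO32 and BCL6 had a lower mean in attached cells than in any suspended group. TXNIP was lower in suspension in both lines, and SESN1, SESN2, SESN3 and INSR varied with the line, the time or the fraction.

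**Figure D1:**
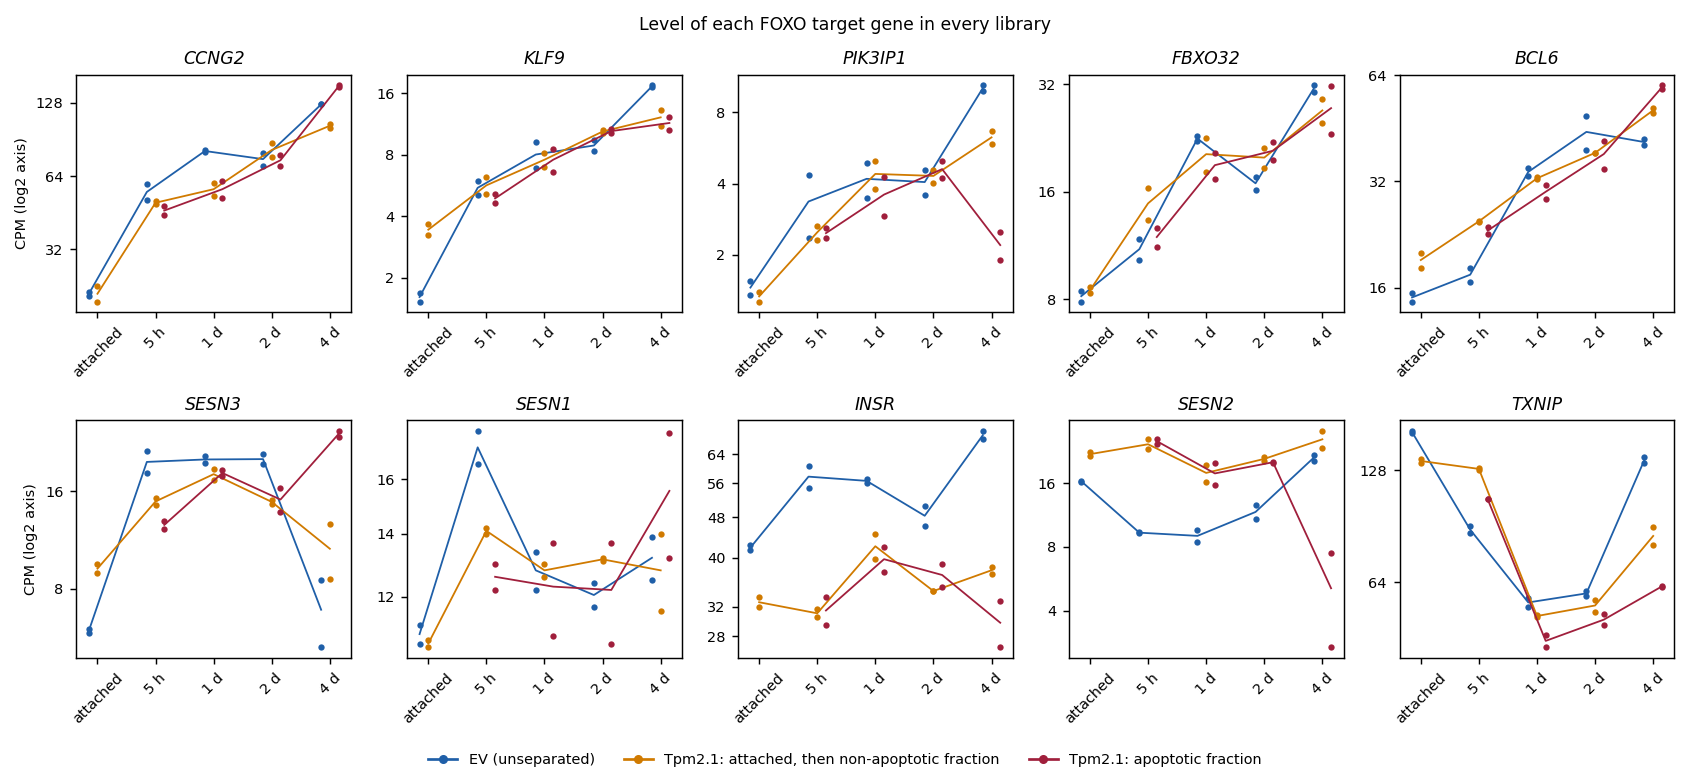
Level of each of the 10 genes in CPM (log2 axis) against culture condition, attached and then 5 hours to 4 days in suspension; points are single libraries, lines join group means, and colours mark EV, Tpm2.1 (attached, then the non-apoptotic fraction) and the Tpm2.1 apoptotic fraction. KLF9 runs from 1.53 CPM in attached EV cells to 17.5 CPM in EV cells after 4 days, and SESN2 drops to 2.68 and 7.52 CPM in the apoptotic fraction at 4 days.

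Suspension of EV cells was compared with attachment first, which asks how the genes differ between suspended and attached cells of the control line. Attached cells of either line were taken only within hours of plating. At the later suspension times, and in means over the times, loss of the substrate and longer time in culture therefore changed together. Their separate parts were not tested, and the term suspension response covers both. Averaged over the 4 times, 8 of the 10 genes were higher and 2 were lower in suspended than in attached EV cells, against a background of 66.3% of all genes called in either direction in the same comparison (edgeR quasi-likelihood test, Benjamini-Hochberg adjusted p under 0.05). The median log2 fold change of the 10 genes was 1.16 and that of all genes tested was 0.07. The number of higher genes was 7 at each single time, but only 5 genes were among them at all 4 times. The share of all genes that passed as higher at all 4 times was not computed. From the earliest to the latest time 2, 2, 2 and 1 were lower, where 54.7%, 63%, 64.6% and 59.5% of all genes were called. All these comparisons share the same 2 attached EV libraries. For 7 genes every suspended EV library lay above both attached ones, and for TXNIP every suspended library lay below them, a separation seen in 45.7% of all genes in either direction.

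CCNG2 encodes cyclin G2, an unconventional cyclin that slows the cell cycle (chromosome 4, hg38, 77157151 to 77433388). It stood at 21.4 and 20.5 CPM in the attached EV libraries, at 59.3 and 50.8 CPM after 5 hours, 81.9 and 80.3 after 1 day, 70.7 and 79.5 after 2 days, and 126 in both libraries after 4 days. The suspended libraries thus lay far above the attached ones in this line. The mean rise was 1.94 ± 0.077 on the log2 scale (SE, adjusted p = 3.58e-23). In the Tpm2.1 line it rose from 19.5 and 22.5 CPM in attached cells to 48.9 and 50.5, 52.9 and 60.1, 76.4 and 87.4, and 101 and 105 CPM in the non-apoptotic fraction at the 4 times. Groups of neighbouring rank overlapped in 5 of 13 cases when the 14 group means were put in order.

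KLF9, a zinc finger repressor that answers to hormones and oxidative stress (chromosome 9, 70384597 to 70414624), had the largest suspension response of the 10 genes in EV cells. Attached EV cells held 1.69 and 1.53 CPM. Suspended EV cells held 5.09 and 5.94 CPM after 5 hours, 6.86 and 9.19 after 1 day, 8.36 and 9.41 after 2 days, and 17.5 and 17.1 after 4 days, a 10.7-fold rise at the last time. Averaged over times it rose by 2.50 ± 0.17 (SE, adjusted p = 7.82e-16). Attached Tpm2.1 cells began higher, at 3.65 and 3.23 CPM. The non-apoptotic fraction held 5.13 and 6.21, 6.96 and 8.18, 10.6 and 10.2, and 13.3 and 11.1 CPM, so the order of the times was the same in both lines.

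PIK3IP1 encodes a membrane protein that binds and inhibits PI3K (chromosome 22, 31281593 to 31292534). It had the fewest counts of the 10 genes, 21 to 154 per library. It stood at 1.55 and 1.36 CPM in attached EV cells, 2.36 and 4.36 CPM after 5 hours, 4.90 and 3.48 after 1 day, 3.57 and 4.55 after 2 days, and 10.4 and 9.84 after 4 days. The 4-day libraries lay above all the others. The mean rise was 1.74 ± 0.22 (SE, adjusted p = 1.06e-08). At 5 hours the 2 libraries were far apart, and without the EV library of replicate 2 at that time the change was 0.69 (adjusted p = 0.102). In the Tpm2.1 line it went from 1.27 and 1.40 CPM attached to 6.64 and 5.90 CPM in the non-apoptotic fraction at 4 days, with a mean rise of 1.63 ± 0.22 (SE, adjusted p = 4.37e-08).

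FBXO32 encodes atrogin-1, the substrate-binding part of a ubiquitin ligase known for muscle wasting (chromosome 8, 123497889 to 123541206). Attached libraries of both lines held 7.88 to 8.63 CPM. EV cells reached 31.8 and 30.4 CPM after 4 days and the non-apoptotic fraction 25.0 and 29.1 CPM. The mean changes were 1.22 ± 0.12 in EV cells and 1.25 ± 0.11 in Tpm2.1 cells (SE, adjusted p = 8.96e-12 and 1.92e-12). BCL6, a transcriptional repressor known from germinal centre B cells (chromosome 3, 187721377 to 187745727), moved later in EV cells. Attached EV cells held 15.4 and 14.6 CPM and those suspended for 5 hours 16.6 and 18.2 CPM, a log2 fold change of 0.22 ± 0.11 that did not pass (SE, adjusted p = 0.0888, but 0.00119 when libraries were scaled by their totals alone). After 1 day it stood at 33.2 and 34.9 CPM, and after 4 days at 40.5 and 42.2. The mean rise was 1.11 ± 0.082 in EV cells and 0.89 ± 0.076 in the non-apoptotic fraction.

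INSR encodes the insulin receptor, the starting point of the pathway that inhibits FOXO (chromosome 19, 7112255 to 7294034). It rose in suspended EV cells from 42.4 and 41.3 CPM to 60.6 and 54.9 after 5 hours, 56.1 and 57.2 after 1 day, 50.6 and 46.1 after 2 days, and 68.4 and 71.0 after 4 days. All 8 suspended EV libraries were above both attached ones, by 0.46 ± 0.066 on the log2 scale on average (SE, adjusted p = 9.81e-08). At 2 days alone the change of 0.21 ± 0.084 was near the threshold (SE, adjusted p = 0.0295), and it did not pass without either attached EV library or without replicate 1 at 2 days (adjusted p = 0.083, 0.152 and 0.309). It was also lost with DESeq2, its size factors, the FPKM scaling and no filter (adjusted p = 0.0766, 0.0619, 0.0639 and 0.269). In the Tpm2.1 line the mean change was 0.14 ± 0.067 and did not pass (SE, adjusted p = 0.0626). It passed with library totals as the scale (0.24, adjusted p = 0.00206). It also passed with a replicate block and without the apoptotic libraries at 4 days (adjusted p = 0.0424 and 0.0462). With DESeq2, its size factors and the FPKM scaling it did not pass.

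The 3 sestrins, which restrain mTORC1 and help to clear peroxides, went different ways. SESN3 (chromosome 11, 95165513 to 95232541) rose early in EV cells, from 5.83 and 5.99 CPM to 18.2 and 21.3 after 5 hours, 20.6 and 19.6 after 1 day and 20.9 and 19.4 after 2 days, and then stood at 5.26 and 8.50 CPM after 4 days. The 4-day libraries straddled the attached ones. Its change was 1.77 ± 0.15 at 2 days and 0.22 ± 0.18 at 4 days (SE), and it fell by 1.55 between them (adjusted p = 3.1e-10). Without replicate 1 at 4 days the change at that time was 0.52 (adjusted p = 0.0199).

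SESN2 (chromosome 1, 28259527 to 28282491), a sestrin induced by amino acid and oxidative stress, fell at first in EV cells. It went from 16.3 and 16.4 CPM to 9.37 and 9.31 after 5 hours, 8.47 and 9.57 after 1 day and 12.6 and 10.8 after 2 days, and stood at 20.4 and 21.8 after 4 days. The first 3 times lay below the attached level and the last lay above it. The mean change was -0.44 ± 0.12 (SE, adjusted p = 0.00136). At 2 days the call was lost without replicate 2 of that time (-0.38, adjusted p = 0.0953) and with library totals as the scale (-0.32, adjusted p = 0.0764). The rise of 0.37 ± 0.15 at 4 days was lost without either attached EV library or without replicate 2 of that time (adjusted p = 0.0908, 0.0848 and 0.152), and with DESeq2, its size factors and the FPKM scaling (adjusted p = 0.0552, 0.0619 and 0.0627). SESN1 (chromosome 6, 108986437 to 109094819), the sestrin best known as a p53 target, varied least of the 3 across groups, by 1.62-fold between the lowest and the highest group mean. It rose by 0.66 ± 0.13 at 5 hours, from 10.7 and 11.2 to 16.6 and 18.0 CPM (SE, adjusted p = 6.72e-05). Its mean rise of 0.32 ± 0.11 did not pass without replicate 1 of attached EV (0.28, adjusted p = 0.104).

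TXNIP (chromosome 1, 145992435 to 145996600) encodes an arrestin-like protein that binds thioredoxin and lowers glucose uptake. In attached EV cells it was the most abundant of the 10 genes per transcript length, with 44.7 and 45.5 FPKM against 4.75 and 4.79 FPKM for SESN2. It fell in suspended EV cells from 161 and 163 CPM to 90.5 and 86.6 after 5 hours, 54.9 and 57.9 after 1 day and 60.5 and 58.8 after 2 days, and stood at 139 and 134 CPM after 4 days. The mean change was -1.02 ± 0.043 (SE, adjusted p = 2.14e-22), and even the 4-day libraries lay below the attached ones. From 2 to 4 days it rose again by 1.19 ± 0.061 (SE, adjusted p = 7.63e-18).

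The sequence around the start sites of these genes was searched for the letters of known regulator sites. RefSeq windows on GRCh38.p14 that span 250 bases before to 50 after a start site were found for 9 of the 10 genes, 14 windows in all, and FBXO32 was not matched. The forkhead consensus GTAAACA was sought on both strands and lay in 2 of the 14 windows, against 3.42% of 35116 windows. CAAAACA, the core of the insulin response element, lay in 0 of 14 windows (4.92% of all), the E-box CACGTG in 1 (7.26%) and the ATF4-type letters TGATGNAA in 1, of BCL6 (3.62%). The motifs do not overlap each other in these windows. The 3 stretches below carry forkhead letters or the E-box in capitals, for a gene that fell in suspension (TXNIP) and for 2 genes that rose (CCNG2 and PIK3IP1). The TXNIP stretch, chr1:145996601-145996829 on the minus strand, lies upstream of the gene, with its match 124 bases before the start site.
TXNIP: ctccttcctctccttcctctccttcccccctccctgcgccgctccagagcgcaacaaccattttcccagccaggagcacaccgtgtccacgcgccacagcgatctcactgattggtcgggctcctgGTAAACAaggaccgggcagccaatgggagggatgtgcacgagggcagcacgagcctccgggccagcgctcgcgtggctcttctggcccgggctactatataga
CCNG2: tccgcggggagtCACGTGccccgccccctt
PIK3IP1: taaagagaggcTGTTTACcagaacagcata
The CCNG2 stretch is chr4:77157165-77157194 on the plus strand and the PIK3IP1 stretch is chr22:31292454-31292483 on the minus strand, where TGTTTAC is GTAAACA read on the other strand. Both lie inside the annotated span of their gene. The CCNG2 match begins 30 bases before the start site of its window, and the PIK3IP1 match begins 16 bases after that of its own. A match describes letters in a window and no binding was measured here.

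In the Tpm2.1 line the non-apoptotic fraction was compared with attached cells, averaged over the 4 times. Of the 10 genes 7 were higher and 1, TXNIP, was lower, where 61.4% of all genes were called. The median log2 fold change of the 10 genes was 0.76 against 0.03 for all genes. CCNG2 rose by 1.73 ± 0.075, KLF9 by 1.32 ± 0.14, SESN3 by 0.64 ± 0.11 and SESN1 by 0.30 ± 0.11 (SE, adjusted p = 7.65e-22, 1.79e-10, 7.01e-06 and 0.0117), and TXNIP fell by 0.85. The SESN1 rise was lost without either attached Tpm2.1 library (0.32 and 0.29, adjusted p = 0.0667 and 0.0967). SESN2 changed by 0.01 ± 0.11 and did not pass. That mean joins 24.4, 17.9, 20.8 and 25.8 CPM at the 4 times, against 21.9 CPM in attached cells. Neither its fall at 1 day nor its rise at 4 days passed. With DESeq2, its size factors, the FPKM scaling and no filter the fall passed (adjusted p = 0.0469, 0.0483, 0.0472 and 0.0329), but not with library totals. Without the apoptotic libraries at 4 days both passed (-0.31 and 0.24, adjusted p = 0.0131 and 0.0432). At single times 7, 7, 6 and 6 genes were higher and 0, 1, 1 and 1 lower, where 45.2%, 54.8%, 56.8% and 62.4% of all genes were called. CCNG2, KLF9, PIK3IP1, FBXO32 and BCL6 passed as higher at all 4 times in this line. CCNG2, KLF9, PIK3IP1, FBXO32 and INSR did so in EV cells. No share of all genes that passed at all 4 times was computed for either line, and the times of a line share its attached libraries. At 5 hours some calls of the genes named here rested on single libraries. In the Tpm2.1 line PIK3IP1 was lost without replicate 1 of either group (adjusted p = 0.0617 and 0.0658) and BCL6 without replicate 2 of attached cells (adjusted p = 0.0517), and in EV cells FBXO32 was lost without replicate 1 of attached cells or replicate 2 at 5 hours (adjusted p = 0.106 and 0.174). For 6 genes every non-apoptotic library lay above both attached Tpm2.1 libraries and for TXNIP below them, as for 41.9% of all genes in either direction. TXNIP had values of 134 and 137 CPM attached, 130 and 128 after 5 hours, 52.2 and 51.5 after 1 day, 57.4 and 53.3 after 2 days, and 89.8 and 80.5 after 4 days. The 5-hour libraries were thus close to the attached ones in this line, with a change of -0.07 ± 0.055 (SE, adjusted p = 0.286).

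**Figure D2:**
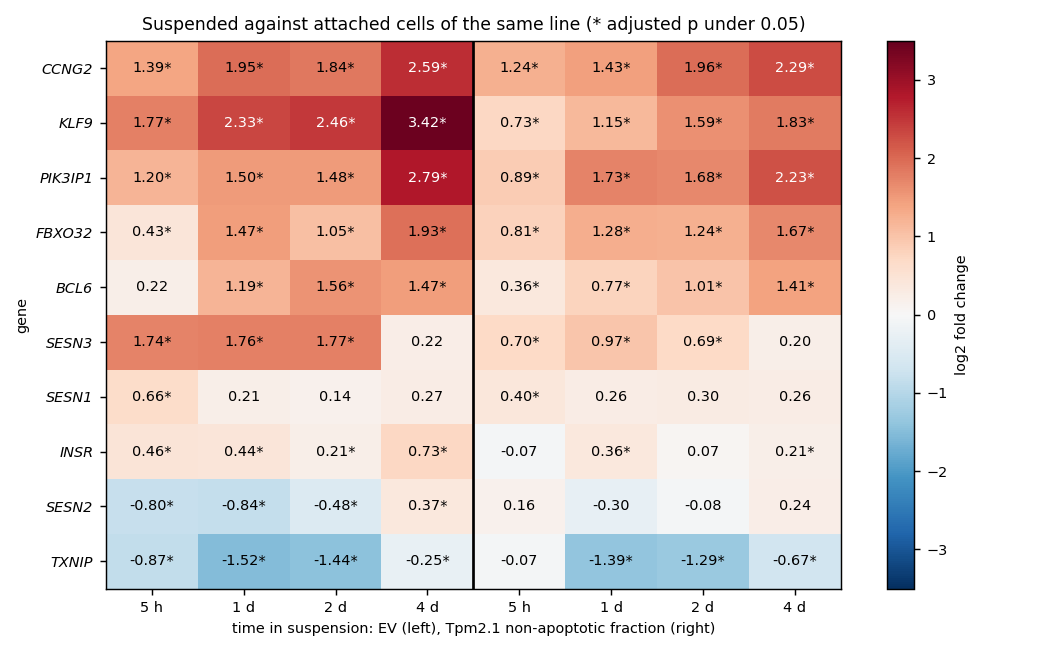
Log2 fold change of each gene in suspended against attached cells of the same line at 4 times, EV on the left and the Tpm2.1 non-apoptotic fraction on the right; colour and printed values give the fold change and an asterisk marks an adjusted p under 0.05. CCNG2, KLF9, PIK3IP1 and FBXO32 are marked as higher in all 8 columns, and SESN3 at 4 days stands at 0.22 and 0.20 without a mark.

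Steps between neighbouring times show when each gene moved. In EV cells 6 of the 10 genes passed from 5 hours to 1 day, where 39.4% of all genes were called. BCL6 rose by 0.97 ± 0.1 and FBXO32 by 1.03 ± 0.14, CCNG2 and KLF9 also rose, and TXNIP and SESN1 fell. From 1 to 2 days 3 passed (19.2% of all genes), BCL6, FBXO32 and INSR. FBXO32 was lost without any 1 of the 4 libraries (adjusted p = 0.0624 to 0.159), BCL6 without replicate 2 at 2 days (adjusted p = 0.265), and INSR without either 1-day library or replicate 2 at 2 days (adjusted p = 0.114, 0.223 and 0.377) and with DESeq2 (adjusted p = 0.0984). From 2 to 4 days 8 passed (39.1% of all genes): TXNIP, PIK3IP1, KLF9, FBXO32, SESN2, CCNG2 and INSR rose, PIK3IP1 by 1.31 ± 0.23 (SE), and SESN3 fell. In the non-apoptotic fraction the counts were 7, 2 and 5, against 40.8%, 12.2% and 34.1% of all genes. Calls lost without some single library there were SESN2, PIK3IP1, KLF9 and FBXO32 in the first step, INSR in the second, and CCNG2, FBXO32 and SESN3 in the last. TXNIP fell by 1.31 from 5 hours to 1 day in this line. SESN3 fell by 0.49 from 2 to 4 days there (adjusted p = 0.0097), a call lost without replicate 1 at 4 days (-0.23, adjusted p = 0.378). In EV cells the step from 5 hours to 1 day was lost for KLF9 without replicate 1 at 5 hours or replicate 2 at 1 day (adjusted p = 0.116 and 0.313), and for SESN1 without replicate 2 of either time (adjusted p = 0.0841 and 0.113).

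Attached cells of the lines were compared next, which asks what differed before detachment. In attached Tpm2.1 cells 4 of the 10 genes were higher and 2 lower than in attached EV cells, where 20.5% of all genes were called. The median of the 10 genes was 0.03 and that of all genes was 0. KLF9 was higher by 1.09 ± 0.22 (SE, adjusted p = 0.000281), with 3.65 and 3.23 CPM against 1.69 and 1.53. SESN3 was higher by 0.64 ± 0.16, SESN2 by 0.43 ± 0.14 and BCL6 by 0.35 ± 0.1 (SE). INSR was lower, at 33.4 and 31.9 CPM against 42.4 and 41.3, and TXNIP was lower, at 134 and 137 against 161 and 163. The groups did not overlap for these 6 genes, which are those that passed. The share of all genes without overlap in this comparison was not computed. The SESN2 call was lost without any 1 of the 4 attached libraries (adjusted p = 0.0771 to 0.143). The BCL6 call was lost without replicate 2 of EV (0.31, adjusted p = 0.117) or replicate 1 of Tpm2.1 (0.28, adjusted p = 0.153).

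In suspension the non-apoptotic Tpm2.1 fraction was compared with suspended EV cells at the same times. Averaged over times 2 of the 10 genes were higher and 3 lower, where 60.5% of all genes were called. INSR was lower by the largest margin, at -0.68 ± 0.043 (SE, adjusted p = 1.04e-16), and it passed as lower at each time. Its levels in the fraction were 30.5 and 31.6 CPM after 5 hours, 44.5 and 39.7 after 1 day, 34.3 and 34.4 after 2 days, and 37.2 and 38.3 after 4 days, each below both EV libraries of that time. SESN2 was higher, at 0.87 ± 0.078 (SE, adjusted p = 2.47e-12). It stood at 23.1 and 25.8 CPM after 5 hours, 19.5 and 16.3 after 1 day, 20.4 and 21.3 after 2 days, and 28.2 and 23.4 after 4 days. Its difference from EV cells was 1.39, 0.97, 0.83 and 0.29 at the 4 times, and the last did not pass (adjusted p = 0.107). CCNG2 was lower by 0.21 ± 0.041 (SE). At single times 6, 3, 3 and 7 genes passed, where 40.9%, 40%, 44.4% and 43.9% of all genes were called.

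TXNIP and BCL6 gave averages in this comparison that rest on single times or libraries. TXNIP was higher in the Tpm2.1 fraction by 0.54 ± 0.058 at 5 hours and lower by 0.68 ± 0.06 at 4 days (SE), which gave a mean of -0.09 ± 0.031 over the 4 times (SE, adjusted p = 0.00951) and a mean of 0.10 without 4 days (adjusted p = 0.0141). Without replicate 2 of the non-apoptotic fraction at 4 days the 4-time mean did not pass (-0.07, adjusted p = 0.059). BCL6 was higher by 0.14 ± 0.047 (SE, adjusted p = 0.0124), which was lost without replicate 1 of EV at 2 days (0.10, adjusted p = 0.0635), in the mean without 4 days (0.081, adjusted p = 0.207) and with library totals (0.096, adjusted p = 0.0685). SESN3 was lower at 5 hours by 0.40 ± 0.13 and at 2 days by 0.44 ± 0.14, and higher at 4 days by 0.62 ± 0.17 (SE). The 4-day difference was 0.31 without replicate 1 of EV or without replicate 2 of the fraction (adjusted p = 0.215 and 0.255). The 5-hour difference of SESN3 was lost without replicate 2 of EV or replicate 1 of the fraction (adjusted p = 0.217 and 0.0981), and the 2-day difference without replicate 1 of either (adjusted p = 0.0776 and 0.0598).

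**Figure D3:**
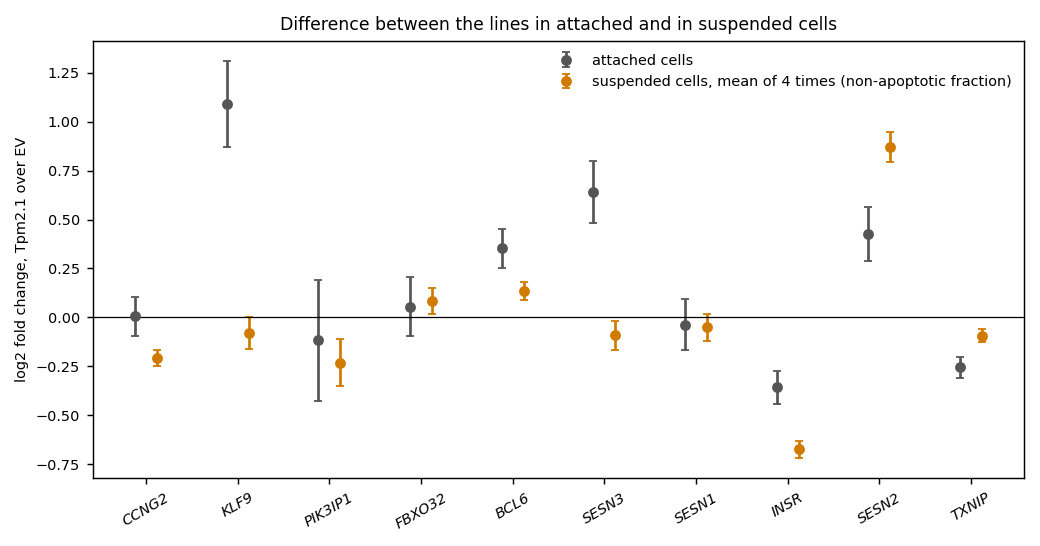
Log2 fold change of each gene in Tpm2.1 over EV cells, in attached cells and in suspension (non-apoptotic fraction, mean of 4 times), with bars for the SE. KLF9 stands at 1.09 in attached cells and at -0.08 in suspension, and INSR is below 0 in both.

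Whether the suspension response differed between the lines was tested as an interaction. Of the 10 genes 2 responded more positively and 3 more negatively in the Tpm2.1 line, where 33.5% of all genes were called. KLF9 responded less, by -1.17 ± 0.23 (SE, adjusted p = 0.000136), and SESN3 responded less, by -0.73 ± 0.17 (SE, adjusted p = 0.000946). Both started higher in attached Tpm2.1 cells. In suspension their means differed between the lines by -0.08 ± 0.082 and -0.09 ± 0.073 (SE), neither of which passed. The KLF9 mean joins levels of 5.67, 7.57, 10.4 and 12.2 CPM in the fraction with 5.51, 8.03, 8.89 and 17.3 CPM in EV cells. At 4 days both KLF9 libraries of the fraction lay below both EV libraries. For SESN3 that mean joins opposite signs, and it was -0.33 without 4 days (adjusted p = 0.000421) and -0.17 without replicate 1 of EV at 4 days (adjusted p = 0.0435). INSR responded less, by -0.32 ± 0.093, and SESN2 more, by 0.45 ± 0.16 (SE, adjusted p = 0.00739 and 0.0293). TXNIP fell less on average, with a difference of 0.16 ± 0.063 (SE, adjusted p = 0.0417). At 5 hours TXNIP went from 135 to 129 CPM in the Tpm2.1 line and from 162 to 88.6 CPM in EV cells. At 4 days it stood at 85.1 and 136 CPM, so by then it had fallen more in the Tpm2.1 line. The SESN2 call was lost without any 1 of the 4 attached libraries (adjusted p = 0.0608 to 0.108). The INSR call was lost without replicate 2 of attached EV or replicate 1 of attached Tpm2.1 (adjusted p = 0.0546 and 0.067). The TXNIP call was lost without any 1 of the 4 attached libraries (adjusted p = 0.0864 to 0.154) and without any 1 of 8 suspended libraries, among them replicate 1 of the non-apoptotic fraction at 4 days (0.15, adjusted p = 0.076). With library totals as the scale SESN2 and TXNIP did not pass (adjusted p = 0.0562 and 0.154). Transcripts of the mitochondrial genome made up 1.61% of counts in attached EV cells, 1.20% to 4.23% in suspended EV cells, 2.16% in attached Tpm2.1 cells and 1.26% to 1.53% in the non-apoptotic fraction, and their part in these differences was not tested.

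The apoptotic fraction was compared with the non-apoptotic fraction at the same time. Up to 2 days few of these genes passed, and only a minority of all genes did. TXNIP was lower in the apoptotic fraction at 5 hours, with 107 CPM in both libraries against 130 and 128 (-0.27 ± 0.057, SE, adjusted p = 0.000844). It was lower again at 1 day, with 42.7 and 46.2 CPM against 52.2 and 51.5 (-0.22 ± 0.068, SE, adjusted p = 0.017). The 1-day call was lost with library totals as the scale (-0.17, adjusted p = 0.0731) and without either non-apoptotic library or replicate 1 of the apoptotic fraction at 1 day (adjusted p = 0.0874, 0.0599 and 0.186). TXNIP was the only one of the 10 genes to pass at 5 hours and at 1 day, and none passed at 2 days, where 21.4%, 19.3% and 16.6% of all genes were called. With 10 genes these counts do not set them apart from all genes. FBXO32 at 5 hours passed when the apoptotic libraries at 4 days were left out (-0.34, adjusted p = 0.0401). The other 9 genes gave values between -0.32 and 0.11 at these times.

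At 4 days the fractions differed in 7 of the 10 genes, 3 higher and 4 lower in the apoptotic fraction, where 72.1% of all genes were called. SESN2 stood at 7.52 and 2.68 CPM (83 and 29 counts) against 28.2 and 23.4 CPM in the non-apoptotic fraction, a difference of -2.33 ± 0.19 on the log2 scale (SE, adjusted p = 1.1e-13). The apoptotic libraries were far from each other, and without replicate 1 the change was -3.31. PIK3IP1 stood at 1.90 and 2.50 CPM against 6.64 and 5.90 (-1.51 ± 0.28, SE, adjusted p = 9.91e-06). SESN3 stood at 24.6 and 23.6 CPM against 8.56 and 12.7, and rose by 1.19 ± 0.15 (SE, adjusted p = 5.32e-09). CCNG2 reached its highest level of the study there, 151 and 148 CPM against 101 and 105. TXNIP was lower, at 62.2 and 62.4 CPM against 89.8 and 80.5, and INSR was lower by 0.34 ± 0.098 (SE). BCL6 was higher by 0.21 ± 0.09 (SE, adjusted p = 0.0316), a call lost without any 1 of the 4 libraries (adjusted p = 0.106 to 0.234), with library totals (0.055, adjusted p = 0.586) and without the filter on low counts (0.10, adjusted p = 0.546). KLF9 and FBXO32 changed by -0.09 ± 0.16 and 0.02 ± 0.13 and did not pass.

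**Figure D4:**
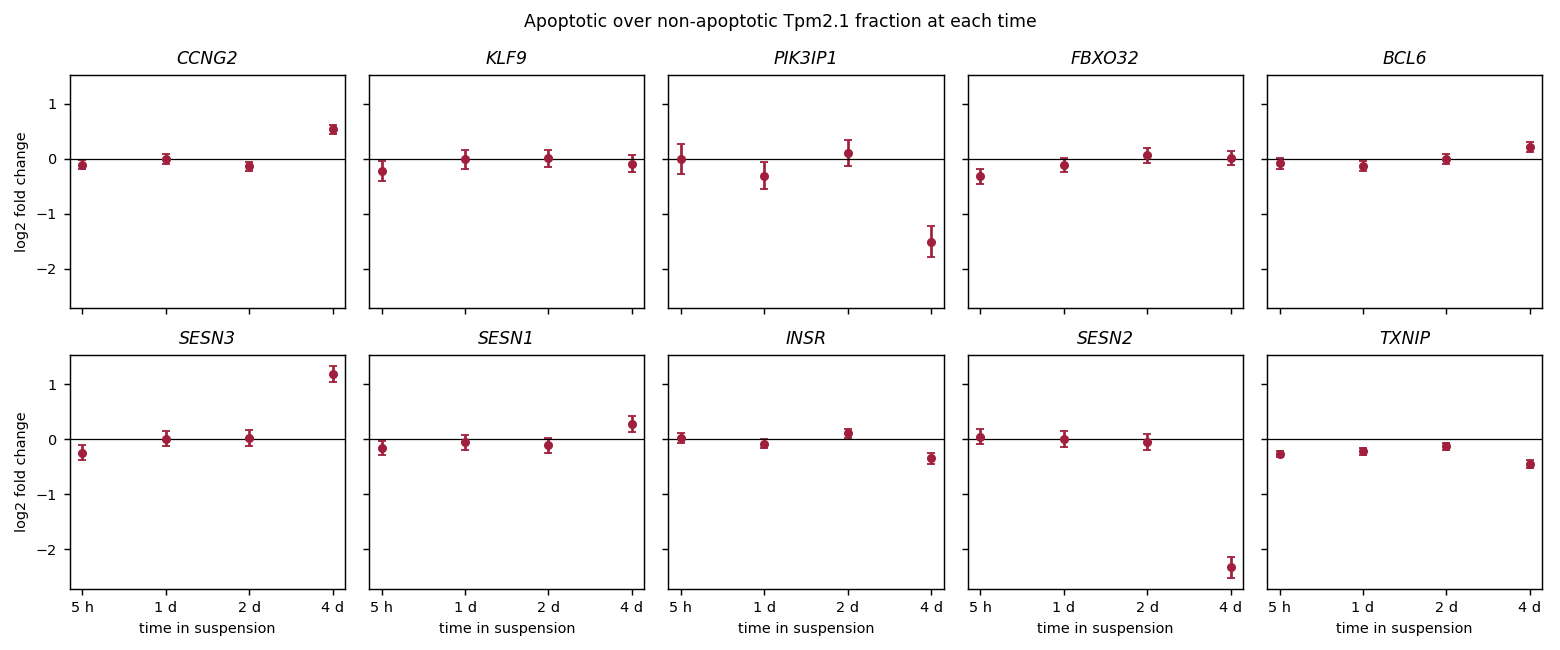
Log2 fold change of the apoptotic over the non-apoptotic Tpm2.1 fraction for each gene against time in suspension, with bars for the SE. Values lie between -0.32 and 0.11 up to 2 days, and at 4 days SESN2 falls to -2.33 and PIK3IP1 to -1.51 while SESN3 reaches 1.19.

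Averaged over the 4 times 4 of the 10 genes passed between the fractions, where 58% of all genes were called, and the average was carried by the last time. Without the apoptotic libraries at 4 days 1 gene passed, TXNIP, while the number of all genes called went from 9973 to 7295, and SESN2 went from -0.58 to -0.01, PIK3IP1 from -0.43 to -0.08 and SESN3 from 0.25 to -0.08. The change at 4 days differed from the mean of the earlier times in 8 of the 10 genes, where 69.6% of all genes were called. Within the apoptotic fraction 9 of the 10 genes passed between 2 and 4 days, where 74.6% of all genes were called and the median of all genes was -0.13. CCNG2 rose by 1.01 ± 0.08 and BCL6 by 0.63 ± 0.091, and SESN2 fell by 1.97 on the log2 scale. With library totals as the scale SESN1 and TXNIP stood at -0.01 and -0.06 in that step instead of 0.35 and 0.30, and FBXO32 at 0.037 instead of 0.39. Without replicate 2 at 4 days SESN1, FBXO32 and INSR did not pass (0.078, 0.11 and -0.21, adjusted p = 0.693, 0.512 and 0.0899), nor did SESN1 and FBXO32 without replicate 1 at 2 days (adjusted p = 0.412 and 0.116). Mitochondrial transcripts made up 6.13% ± 0.382 of counts in the apoptotic fraction at 4 days and 1.40% ± 0.211 in the non-apoptotic fraction (SD, n = 2), and their part in these differences was not tested.

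Across the 14 group means CCNG2, KLF9, FBXO32 and BCL6 followed each other most closely, with Pearson r on log2 CPM of 0.882 to 0.931 within their 6 pairs. PIK3IP1 followed these 4 genes with r of 0.618 to 0.832. SESN3 and TXNIP ran opposite to each other, at -0.772. Over all 45 pairs of the 10 genes the median r was 0.209 and 29 were positive, so the 10 genes did not share a single profile. These values describe 14 means that share libraries, controls and a time course. The apoptotic fraction at 4 days is among the means, and the values were not computed without it. Among 10486 other protein-coding genes, CCNG2 was most like ASAH1 (0.979), FBXO32 most like SLC2A3 (0.977), BCL6 most like NMNAT2 (0.967), KLF9 most like NRG2 (0.963), TXNIP most like ELF4 (0.961), INSR most like GNG7 (0.955), PIK3IP1 most like PFKFB4 (0.952) and SESN2 most like CD99 (0.948). SESN3 and SESN1 reached 0.920 with CCDC136 and 0.856 with UGDH.

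The FOXO factors themselves were measured as RNA, which says nothing of their phosphorylation. In suspended EV cells FOXO4 rose by 1.41 ± 0.17 and FOXO1 by 0.66 ± 0.094, and FOXO3 changed by 0.11 ± 0.053 and did not pass (SE, adjusted p = 2.16e-09, 9.97e-08 and 0.0702). FOXO4 went from 3.12 CPM in attached EV cells to between 7.31 and 8.90 CPM in suspended ones. Of the 4 FOXO genes listed 2 were higher and 0 lower in EV cells, and 2 were higher and 2 lower in the non-apoptotic fraction, where 66.3% and 61.4% of all genes were called. Of 18 PI3K, AKT and SGK genes tested 4 were higher and 6 lower in suspended EV cells, a share below that of all genes, with a median of -0.05. In the non-apoptotic fraction 3 were higher and 11 lower, a share above that of all genes, with a median of -0.27. SGK1, a kinase that phosphorylates FOXO proteins, had the smallest p of that list and fell by 2.23, from 83.8 CPM to between 13.1 and 21.0 CPM in suspended EV cells. IRS1, the insulin receptor substrate, fell by 0.77, and PIK3CB, a catalytic subunit of PI3K, rose by 0.59 ± 0.051 (SE).

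Other targets of FOXO gave a mixed picture of their own. Counts for means over the times stand against 66.3% of all genes called in suspended EV cells and 61.4% in the non-apoptotic fraction. Counts for EV cells at 1 day and at 4 days stand against 63% and 59.5%. Of 24 tested, 15 were higher and 6 lower in suspended EV cells with a median of 0.47, and 13 were higher and 6 lower in the non-apoptotic fraction with a median of 0.43. The 3 with the smallest p all fell in EV cells: GADD45B and GADD45A, which act in growth arrest and DNA repair, by 2.45 and 1.78, and IGFBP1, a binding protein of insulin-like growth factors, by 1.72. The 12 ATF4 targets, which share SESN2 as a known target, had 3 higher and 5 lower in the mean of suspended EV cells, with DDIT4 at 1.44 ± 0.072, PSAT1 at -0.92 ± 0.052 and ATF3 at -1.52 ± 0.15 (SE). That mean joins 4 higher and 6 lower at 1 day (median -0.47) with 7 higher and 3 lower at 4 days (median 0.80). Of 8 MondoA and glucocorticoid targets 2 were higher and 6 lower, with DUSP1 at -2.46 ± 0.063 and FKBP5 at -1.35 ± 0.052 (SE). This list joins targets of both regulators and counts SGK1 again, so it does not describe MondoA targets alone. Of 12 p53 targets, among them SESN1, 8 were higher and 2 lower, with TP53INP1 at 2.64 ± 0.14, CDKN1A at 0.60 ± 0.051 and BAX at -0.32 ± 0.048 (SE). CDKN1A also counts among the other FOXO targets above, so these lists overlap, and p53 activity was not tested. Of the 13 mitochondrial mRNAs 13 were higher in the mean of suspended EV cells, but at 4 days 0 were higher and 10 lower there (median -0.56). In the non-apoptotic fraction 12 were lower in the mean.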

How the data were processed

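For the 28 libraries the authors deposited gene counts, which are whole numbers, and FPKM values. Per the submitters' processing notes the build was hg38 and DESeq2 was used. No aligner, counting tool or use of strand is given in the sources used here. Deposited FPKM values of genes with a count of at least 50 could be rebuilt from the count, the gene length and a library factor. FPKM served to set levels of different genes side by side, and its library factors served as an alternative scaling.

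The quasi-likelihood fit of edgeR 4.0.16 (R 4.3.3) was run on the counts (TMM, filterByExpr, a mean per group over all 28 libraries, F test, 14 residual degrees of freedom, 30 comparisons). Adjusted p values are Benjamini-Hochberg values over the 17191 genes of a comparison, with 0.05 as the threshold. The SE is the absolute log2 fold change over the square root of F. Means over times weight the 4 times equally. The fit was also run on simulated counts with known changes, as a check of the code alone. Likeness used log2 CPM with a prior count of 2 and genes of at least 10 CPM in a group. Alternatives were DESeq2 1.42.0, its size factors, library totals, the scaling of the FPKM table, no filter, only protein-coding genes, only the libraries of a comparison, a replicate block, the apoptotic libraries at 4 days left out, means without 4 days, and each library left out in turn. Samples were not paired by replicate number, except where that number was used as a block.

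The 10 genes were named by a fixed list. From each of the 7 other lists (FOXO factors, PI3K, AKT and SGK genes, other FOXO targets, ATF4, MondoA and glucocorticoid, and p53 targets, mitochondrial mRNAs) up to 3 genes were named, those with the smallest p in suspended against attached EV cells and at least 1 CPM in a group, and for likeness the nearest gene. The members and lists were chosen with earlier results of these data known. Totals of 13043529 to 27416335 counts limit the precision of genes with few counts.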

Additional observations from a re-analysis of the deposited data

Results flagged for a closer look

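The suspension response, tested as a difference between the lines (Tpm2.1 non-apoptotic fraction minus EV, log2), differed for SESN2 (0.45), SESN3 (-0.73), TXNIP (0.16), KLF9 (-1.17) and INSR (-0.32). Of these only SESN3 and KLF9 passed in every run that left out 1 library.

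The difference between the apoptotic and the non-apoptotic fraction at 4 days was tested against its mean at the earlier times. It differed for SESN2 (-2.33, or -3.31 without replicate 1 of the apoptotic fraction at 4 days), SESN3 (1.26), CCNG2 (0.62), TXNIP (-0.24), PIK3IP1 (-1.44), INSR (-0.36), SESN1 (0.39) and BCL6 (0.29). SESN1 was lost without any 1 of 12 libraries, with adjusted p up to 0.596 without replicate 2 of the apoptotic fraction at 4 days, and with library totals as the scale (0.19, adjusted p = 0.315). BCL6 was lost with library totals (0.09, adjusted p = 0.435), without the filter (0.21, adjusted p = 0.158), and without replicate 1 of the non-apoptotic fraction at 4 days or, in the apoptotic fraction, replicate 2 at 5 hours, replicate 1 at 2 days or replicate 1 at 4 days (adjusted p = 0.0911, 0.102, 0.0528 and 0.0932). TXNIP was lost without replicate 1 of the non-apoptotic fraction at 4 days (-0.19, adjusted p = 0.0598), and INSR without replicate 2 of the apoptotic fraction at 4 days (-0.25, adjusted p = 0.0637). These comparisons share the non-apoptotic libraries and rest on the 2 apoptotic libraries that had the fewest detected genes.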

How the results depend on the processing

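Of the 300 results for single genes, 178 passed. Leaving out 1 library at a time gave 1840 values, of which 118 no longer passed, 15 newly passed and 0 changed direction. The other alternatives gave 2720 values, of which 52 kept their direction and no longer passed, 47 newly passed and 6 called values changed sign. Of these 6 only TXNIP between the suspended lines still passed, so the other 5 calls were lost as well. Scaling by library totals alone moved the median of all genes by up to 0.20 (suspended EV at 5 hours) and by -0.36 (apoptotic fraction, 4 against 2 days), and in that last step it turned SESN1 to -0.005 and TXNIP to -0.058. SESN3 between the fractions turned to -0.079 without the apoptotic libraries at 4 days and to -0.068 in the mean without 4 days, SESN2 turned to 0.002 in the mean without 4 days, and TXNIP between the suspended lines turned to 0.103 in the same mean.

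The number of the 10 genes called between the fractions was 4, and 1 without the apoptotic libraries at 4 days or in the mean without 4 days. For the difference between the suspension responses it was 5, and 3 with library totals. Without 1 library it ran from 4 to 5 (attached lines, 6 with all), 9 to 10 (EV suspension, 10 with all), 7 to 9 (Tpm2.1 suspension, 8 with all), 4 to 5 (fractions), 4 to 6 (suspended lines, 5 with all) and 2 to 5 (difference of responses), where the values of 2 and 3 came without an attached library. A group left with 1 library was assumed to vary like the others. With the replicate number as a block, 297 of 300 results kept their call, 0 were lost and 3 newly passed, and the counts were 6, 10, 9, 4, 5 and 5 in the same order. Same-numbered libraries of the 91 group pairs correlated at -0.075 to 0.054, so no effect common to a replicate number was seen. These correlations cannot show whether the fractions of a time came from the same culture. Low counts limit PIK3IP1 and, in the apoptotic fraction at 4 days, SESN2.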

Other observations

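The other lists also differed between the fractions at 4 days, where 72.1% of all genes were called. Of 24 other FOXO targets 7 were higher and 11 lower in the apoptotic fraction, with a median log2 fold change of -0.40, while the 10 genes described above had 3 higher and 4 lower and a median of -0.04. Of 12 ATF4 targets 2 were higher and 7 lower (median -0.95), of 8 MondoA and glucocorticoid targets 3 were higher and 5 lower (median -1.13), and of 12 p53 targets 4 were higher and 6 lower (median -0.16). Of 13 mitochondrial mRNAs 12 were higher and 0 lower, with a median of 2.07. Among the FOXO factors FOXO1 stood at 0.80 and FOXO4 at -0.69, and both passed. The median of all genes tested was 0 in this comparison. Between the suspended lines, 13 of 24 other FOXO targets were higher and 9 lower in the non-apoptotic Tpm2.1 fraction, where 60.5% of all genes were called.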
